A study of Chlorocebus aethiops with 30 samples.

Results

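DDIT3, PPP1R15A and DDIT4 are stress genes whose RNA was followed in Vero cells, a cell line from the kidney of the African green monkey, after the cells had been detached from their dish. All 3 genes were found by name among the 1237 genes of the authors' comparison of trypsin with TrypLE at 0 h, and all 3 by gene number among the 340 genes of the authors' union table of group means. The 30 samples of the study form 10 groups of 3, all wild type and all from Vero cultures in medium with fetal bovine serum. Cells were digested with trypsin at 37 °C, or with TrypLE, a recombinant enzyme that cuts like trypsin, at 37 °C, and were collected at once (0 h) or after 8 or 24 h back in culture. The control group was detached at 37 °C with a solution that holds no enzyme and was collected at once. The same kind of solution was used to collect the cells at 8 and 24 h, so every group was detached, and an undisturbed culture is not among the groups used here. A further 9 samples, from cells digested with cold TrypLE (4 °C) at 25 °C, were not analysed here. Values for single libraries were available for trypsin and TrypLE at 0 h, 3 libraries each, and 1 mean per group for these and for trypsin and TrypLE at 8 and 24 h and the control.

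The integrated stress response is set off when kinases that sense misfolded protein, lack of amino acids or haem, or viral RNA phosphorylate the initiation factor eIF2. General translation then falls, while the mRNA of the transcription factor ATF4 is translated more. DDIT3 and PPP1R15A are known targets of ATF4, and DDIT4 is a target of ATF4, of hypoxia-inducible factor and of glucocorticoids. DDIT3 encodes CHOP, a transcription factor linked to cell death under lasting stress. PPP1R15A encodes GADD34, which brings protein phosphatase 1 to eIF2 and so ends the response. DDIT4 encodes REDD1, which restrains the growth kinase complex mTORC1 through the TSC complex.

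Of the 6 libraries at 0 h, reads over the 1237 listed genes numbered 1656319 to 1827824 after trypsin and 1957344 to 2192333 after TrypLE. The tables used here hold no total over all genes. The table keeps the genes for which the authors' unadjusted p was below 0.05, so each listed gene already differed at that level. Trypsin replicate 1 stood apart from its group along gene length. The 360 listed genes shorter than 1000 bases had a median log2 deviation from the 6-library mean of -0.11 in it, against -0.48 and -0.35 in trypsin replicates 2 and 3. In the TrypLE libraries that median was 0.45, 0.29 and 0.22. DDIT3, at 983 bases, falls among these short genes, whereas DDIT4 and PPP1R15A have 1839 and 2396 bases. Of 10 symbols for epithelial cells 1 was listed, TJP1, which the authors' deposited table puts at a log2 change of 0.31 (adjusted p = 0.403). In an edgeR refit with the trend on gene length removed, TJP1 stood at -0.055. None of the 10 fibroblast, 10 immune and 7 endothelial symbols was listed, and since absence from a selected table gives no level, the cell type could not be checked.

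At 0 h the 3 genes did not move together. DDIT3 and PPP1R15A were lower after trypsin than after TrypLE, and DDIT4 was higher after trypsin. DDIT3 fell to 228.9 ± 28.1 normalized read counts after trypsin, against 393.3 ± 19.4 after TrypLE (SD, n = 3 each). PPP1R15A fell to 1284 ± 63.5 after trypsin, against 1835 ± 178 after TrypLE (SD, n = 3 each). DDIT4 was higher, at 481 ± 64.1 after trypsin, against 306 ± 60.3 after TrypLE (SD, n = 3 each). In bulk RNA, fewer cells that express a gene and less RNA per cell cannot be told apart.

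The values of single libraries show how far the groups were separated. DDIT3 had 258, 202 and 227 normalized counts in the trypsin libraries, against 387, 415 and 378 in the TrypLE libraries. The highest trypsin library lay well under the lowest TrypLE library, and the groups did not overlap. PPP1R15A had 1350.02, 1223 and 1278 normalized counts after trypsin, against 1712, 2040.1 and 1754 after TrypLE. Its groups did not overlap either, and TrypLE replicate 2 was the highest library. DDIT4 had 554, 437 and 451 normalized counts after trypsin, against 254, 372 and 291 after TrypLE. Trypsin replicate 1 was the highest and TrypLE replicate 1 the lowest library for DDIT4. The lowest trypsin and the highest TrypLE library, both replicate 2, lay closest together without overlapping. Groups without overlap were common in this selected table, at 75.6% of listed genes, 47% without overlap and lower after trypsin and 28.6% without overlap and higher.

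**Figure D1:**
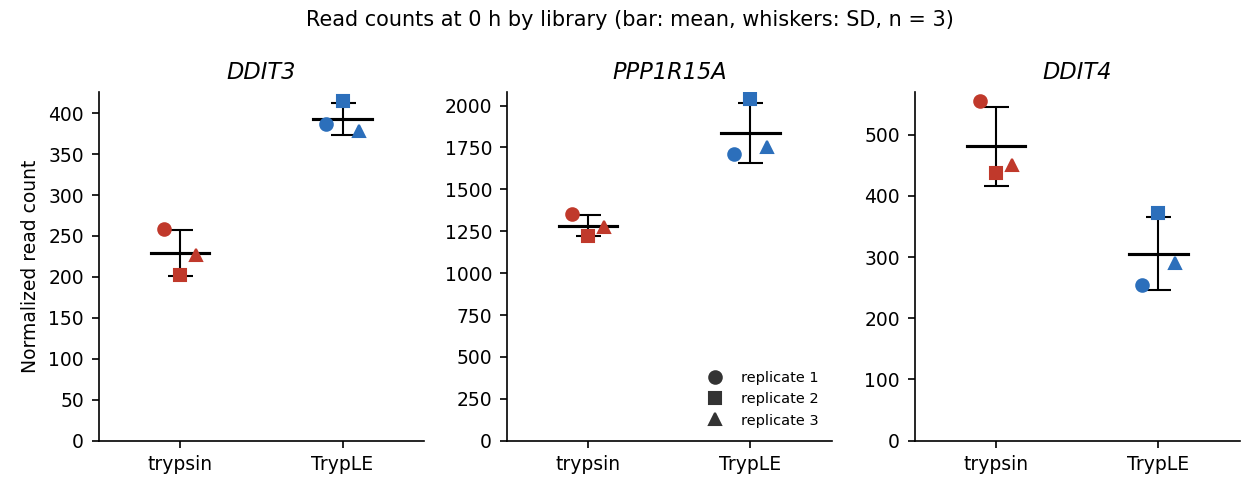
Normalized read counts (vertical axes, from 0) of DDIT3, PPP1R15A and DDIT4 in the 3 trypsin and the 3 TrypLE libraries at 0 h, with markers for the replicate number, the mean as a bar and the SD as whiskers. All trypsin libraries lie below all TrypLE libraries for DDIT3 and PPP1R15A, and above them for DDIT4.

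The authors' deposited table gives a log2 fold change of trypsin over TrypLE of -0.78 for DDIT3 (adjusted p = 0.000229), -0.52 for PPP1R15A (adjusted p = 0.00141) and 0.65 for DDIT4 (adjusted p = 0.0152). DDIT3 stood at place 106, PPP1R15A at 126 and DDIT4 at 194 of the listed genes by adjusted p. Among genes on the higher side DDIT4 stood at place 22. All 3 genes were thus called by the authors at an adjusted p below 0.05, as were 1.65% of the 15194 genes it adjusted over and 20.3% of the listed genes. In the direction of DDIT3 and PPP1R15A 1.42% of all genes and 17.5% of the listed genes passed, and in that of DDIT4 0.23% and 2.83%. Since the genes were chosen with these results known, these shares describe the table and lend the genes no support. Relative to the median of all listed genes, at -0.29, DDIT3 stood at -0.49, PPP1R15A at -0.22 and DDIT4 at 0.95 on the log2 scale.

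The calls of PPP1R15A and DDIT4 depended on the test. DESeq2 on the recovered reads called all 3 genes, with 15.8% of the listed genes called, while the edgeR quasi-likelihood test called DDIT3 alone, with 14.8% of the genes fitted called. In edgeR with the authors' size factors the log2 fold change was -0.78 with an SE of 0.165 for DDIT3 (adjusted p = 0.0109), and -0.52 with an SE of 0.139 for PPP1R15A (adjusted p = 0.0804). For DDIT4 it was 0.65 with an SE of 0.171 (adjusted p = 0.0677). The direction was the same in 17 of 17 refits for each gene. The refits reuse the same libraries, whose groups did not overlap for any of these genes, so this is no independent support. Every refit also estimated the replicate spread over the listed genes alone, which the authors' p had selected, so the p-values of the refits carry that selection. DDIT3 was called in 11 of the refits, DDIT4 in 7 and PPP1R15A in 2. With the trend on gene length removed from each library, DDIT3 went to -0.38 and lost its call (adjusted p = 0.481 by edgeR), PPP1R15A went to -0.37 (adjusted p = 0.172 by edgeR), and DDIT4 went to 0.88 and was called (adjusted p = 0.0316 by edgeR). That trend was fitted on the listed genes themselves, so its removal also takes out any difference that short genes share. Without trypsin replicate 1, the library that stood apart, DDIT3 kept its edgeR call at -0.88 (adjusted p = 0.0119) and PPP1R15A gained one at -0.55 (adjusted p = 0.0464), while DDIT4 was at 0.54 (adjusted p = 0.211). Leaving out replicate 2 of trypsin or of TrypLE ended the edgeR call of DDIT3 (adjusted p = 0.062 and 0.0831), and DDIT4 was called without either of these libraries (adjusted p = 0.0374 and 0.044). With median-ratio factors taken over the listed genes, PPP1R15A was at -0.32 (adjusted p = 0.517 by edgeR). Under these factors and under TMM factors DDIT3 was not called and DDIT4 was, at 0.84 and 0.81 (adjusted p = 0.0334 and 0.02 by edgeR). Both sets of factors were computed on genes selected for a difference, so they also take out a difference that most listed genes share. The median log2 fold change went to -0.09 under median-ratio and -0.13 under TMM factors.

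**Figure D2:**
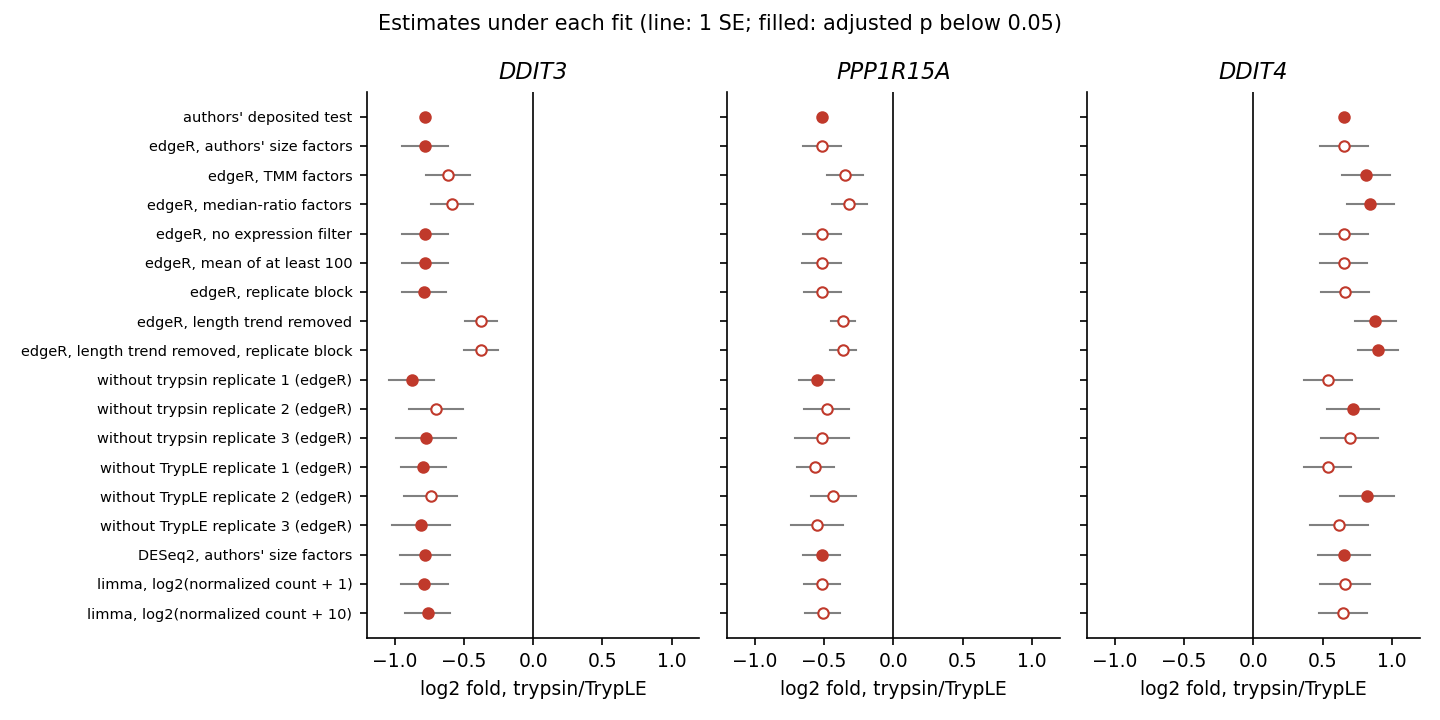
Log2 fold change of trypsin over TrypLE at 0 h (horizontal axes) for each gene in the authors' test and in 17 refits (rows), with 1 SE on each side as a line where the fit gives one and filled points for an adjusted p below 0.05. The points stay on one side of 0 for each gene, between -0.88 and -0.37 for DDIT3, between -0.56 and -0.32 for PPP1R15A and between 0.54 and 0.90 for DDIT4.

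Replicate spread relative to counting error differed among the 3 genes. DDIT3 rested on 198 to 264 reads per trypsin library and 373 to 453 reads per TrypLE library. Its coefficient of variation after TrypLE was 4.94%, close to the 4.95% that counting error alone gives at this depth, and after trypsin it was 12.3% against 6.66%. PPP1R15A, with 1199 to 2226 reads per library, varied by 4.94% after trypsin and 9.72% after TrypLE, against counting errors of 2.81% and 2.29%. DDIT4, with 261 to 567 reads, varied by 13.3% after trypsin and 19.7% after TrypLE, against 4.59% and 5.61%. DDIT4 thus had the widest spread in both groups. Reads without molecular identifiers are not independent molecules, so these figures cover counting error only.

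The ratio between a pair of these genes within a library does not depend on the scaling factor. For all 3 pairs the libraries of the groups did not overlap. For the ratios over DDIT4 this follows from the single genes, since DDIT4 separated the groups in the other direction. Per kilobase of transcript, DDIT3 over DDIT4 was 0.871, 0.865 and 0.940 in the trypsin libraries, against 2.85, 2.09 and 2.43 in the TrypLE libraries. DDIT4 was thus the more abundant of the pair per length in every trypsin library and DDIT3 in every TrypLE library. DDIT3 belongs to the short listed genes, whose median was low in the trypsin libraries. With the length trend removed, DDIT3 stood at -0.38 and DDIT4 at 0.88 in edgeR. Whether the order of this pair holds without that trend was not tested. The difference of the log2 ratio, trypsin minus TrypLE, was -1.45. PPP1R15A over DDIT4 was 1.87, 2.15 and 2.17 in the trypsin libraries, against 5.17, 4.21 and 4.63 in the TrypLE libraries, and the log2 difference was -1.18. PPP1R15A over DDIT3 was 2.15, 2.48 and 2.31 in the trypsin libraries, against 1.82, 2.02 and 1.90 in the TrypLE libraries. The log2 difference was 0.27. This gap is not free of gene length: with the length trend removed, DDIT3 and PPP1R15A stood at -0.38 and -0.37 in edgeR. A two-sided exact permutation test gave p = 0.1 for each of these 3 ratios, the smallest p that 3 against 3 libraries allow. For the ratios over DDIT4 that p was fixed beforehand by the values of the single genes. The genes were chosen with these results known, so the ratios lend them no support.

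The group means extend the picture to recovery and to the enzyme-free control. They are the authors' means on an FPKM scale (reads per kilobase of transcript, scaled to the depth of the library), without an error, so differences among them were not tested. In all 3 genes the control had the highest mean of the 7 groups, which was the case for 16.8% of the genes in the union table.

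DDIT3 had means of 14.8, 22.0 and 18.3 at 0, 8 and 24 h after trypsin and 25.5, 15.0 and 21.9 at 0, 8 and 24 h after TrypLE, against 66.4 in the enzyme-free control. The control mean was thus 4.49 times that at 0 h after trypsin and 2.61 times that at 0 h after TrypLE. A control mean of at least 2 times both 0 h means was seen for 7.06% of the union genes, and neither PPP1R15A nor DDIT4 met it. At 24 h the DDIT3 mean was 27.5% of the control after trypsin and 32.9% after TrypLE, so it was still below the control level at the last time sampled. Its 2 series also crossed. From 0 to 8 h the mean after trypsin went up by a factor of 1.49 and that after TrypLE went to 0.589 of its starting value, a pairing of directions shared by 41.8% of the union genes. Trypsin over TrypLE was therefore 0.581 at 0 h, 1.46 at 8 h and 0.835 at 24 h. With each group scaled by its median over the union genes, the log2 ratio at 0 h went to -0.36 for DDIT3, -0.093 for PPP1R15A and 1.08 for DDIT4.

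PPP1R15A had means of 34.0, 35.6 and 43.1 at 0, 8 and 24 h after trypsin and 48.7, 34.8 and 55.4 at 0, 8 and 24 h after TrypLE, against 65.7 in the enzyme-free control. Its range was the narrowest of the 3 genes, with a highest mean 1.93 times the lowest, against 4.49 for DDIT3 and 2.63 for DDIT4. By 24 h it stood at 65.7% of the control after trypsin and 84.4% after TrypLE. After TrypLE it went to 0.714 of its 0 h value at 8 h and was 1.59 times higher at 24 h than at 8 h. After trypsin the mean at 8 h was 1.05 times that at 0 h. Trypsin over TrypLE was 0.698 at 0 h, 1.02 at 8 h and 0.778 at 24 h. The pattern of a trypsin mean below TrypLE at 0 h, above it at 8 h and below it again at 24 h was shared by DDIT3 and PPP1R15A, for PPP1R15A with a difference at 8 h inside its 0 h spread, and was seen for 14.1% of the union genes.

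DDIT4 had means of 16.6, 13.3 and 15.0 at 0, 8 and 24 h after trypsin and 10.6, 9.47 and 14.6 at 0, 8 and 24 h after TrypLE, against 24.9 in the enzyme-free control. Both series had a lower mean at 8 h than at 0 h, as 21.2% of the union genes did, with factors of 0.799 after trypsin and 0.895 after TrypLE. Like DDIT3 and PPP1R15A, DDIT4 was higher at 24 h than at 8 h after TrypLE, by a factor of 1.55, as 42.4% of the union genes were. After trypsin the 24 h mean was above the 8 h mean for DDIT4 and PPP1R15A and below it for DDIT3, against 56.2% of the union genes with a higher mean. Trypsin over TrypLE was 1.57 at 0 h, 1.40 at 8 h and 1.02 at 24 h. A higher trypsin mean at all 3 times was seen for 7.65% of the union genes. Once each group was scaled by its median over the union genes, the 24 h value changed side, with a log2 ratio of -0.10 in place of 0.04. At 24 h DDIT4 stood at 60.3% of the control after trypsin and 58.8% after TrypLE.

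**Figure D3:**
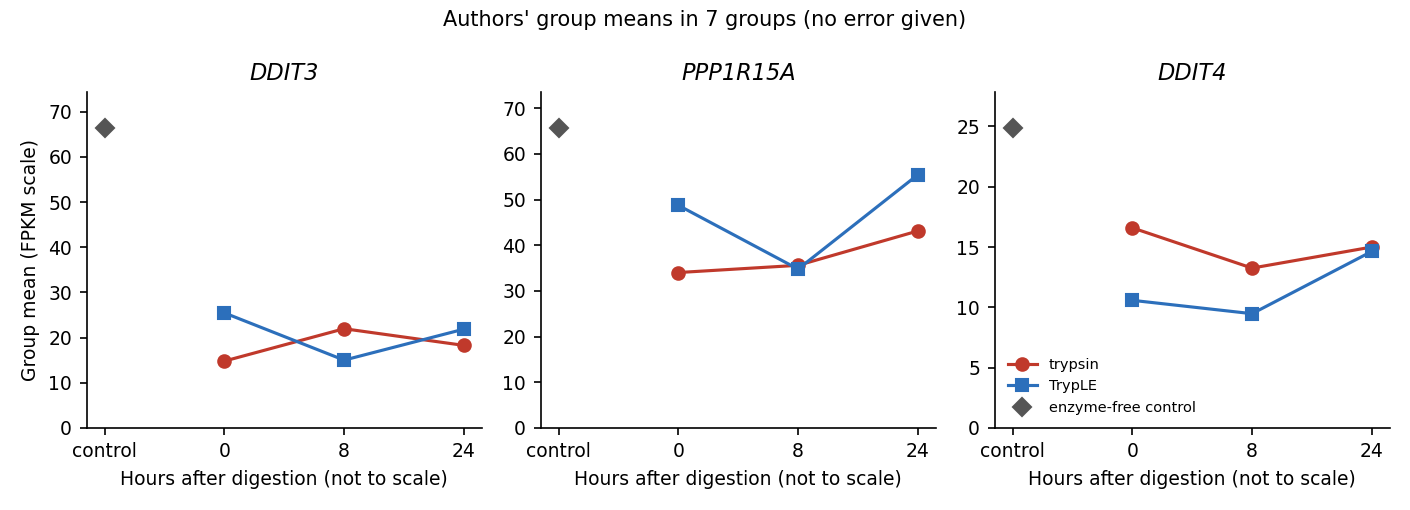
The authors' group means on an FPKM scale (vertical axes, from 0) of DDIT3, PPP1R15A and DDIT4 in the enzyme-free control and at 0, 8 and 24 h after trypsin or TrypLE (horizontal axes, categories not to scale), with no error given. The control is the highest group in each panel, the 2 DDIT3 series cross between 0 and 8 h and again by 24 h, and the DDIT4 series meet at 24 h.

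In the order of levels, many neighbours lay closer than the replicate spread at 0 h. For DDIT3 the order was control, TrypLE 0 h, trypsin 8 h, TrypLE 24 h, trypsin 24 h, TrypLE 8 h and trypsin 0 h. Of its 6 neighbouring pairs 2 differed by less than 12.3%, the larger of its coefficients of variation at 0 h, namely trypsin 8 h with TrypLE 24 h and TrypLE 8 h with trypsin 0 h. For PPP1R15A the order was control, TrypLE 24 h, TrypLE 0 h, trypsin 24 h, trypsin 8 h, TrypLE 8 h and trypsin 0 h, and among the last 3 each neighbouring pair lay within 9.72%, the larger of its coefficients of variation at 0 h. For DDIT4 the order was control, trypsin 0 h, trypsin 24 h, TrypLE 24 h, trypsin 8 h, TrypLE 0 h and TrypLE 8 h. Of its 6 neighbouring pairs 4 lay within 19.7%. The spread at 8 and 24 h and in the control is unknown.

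The levels of the 3 genes relative to each other also changed between groups. PPP1R15A over DDIT3, both on the FPKM scale, was 2.30, 1.62 and 2.36 at 0, 8 and 24 h after trypsin and 1.91, 2.32 and 2.54 after TrypLE, against 0.989 in the control. The enzyme-free control was thus the one group in which DDIT3 RNA was as abundant per length as PPP1R15A RNA. DDIT3 over DDIT4 was 0.891, 1.66 and 1.22 at 0, 8 and 24 h after trypsin and 2.41, 1.58 and 1.49 after TrypLE, against 2.67 in the control. DDIT4 exceeded DDIT3 in the trypsin 0 h group only, out of the 7 groups. This order, too, was not tested without the length trend.

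Genes with group means most like each of the 3 genes were sought among the named union genes, 150 in all. Names came only from the 0 h comparison, so each named gene already differed there at an unadjusted p below 0.05. The 134 union genes outside that comparison were left out. Likeness was measured by the root mean square difference of centred log2(mean + 1) over the 7 groups. The gene closest to DDIT3 was PPP1R15A itself, at a difference of 0.426 (Pearson r = 0.83 over 7 groups), followed by KLF6 at 0.432 and BHLHE40 at 0.440, both of which encode transcription factors. These distances were larger than those of the genes next to PPP1R15A and DDIT4, and in the control the DDIT3 curve lay above all 3 of its neighbours. The gene closest to PPP1R15A was CLK1, a kinase of splicing factors, at 0.0784 (Pearson r = 0.98 over 7 groups). CLK1 had means of 17.6, 16.0 and 20.6 at 0, 8 and 24 h after trypsin and 22.8, 17.6 and 25.6 after TrypLE, against 29.2 in the control. Next came CSRNP1 at 0.202, a transcription factor, and TMSB4X at 0.216, an actin-binding thymosin. DDIT4 lay closest to CENPF at 0.225, a kinetochore protein, NCAPD2 at 0.228, a condensin subunit, and ARHGAP33 at 0.261. The 7 points are shared group means, the search ran over genes that the authors had selected, and the likeness is a description.

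**Figure D4:**
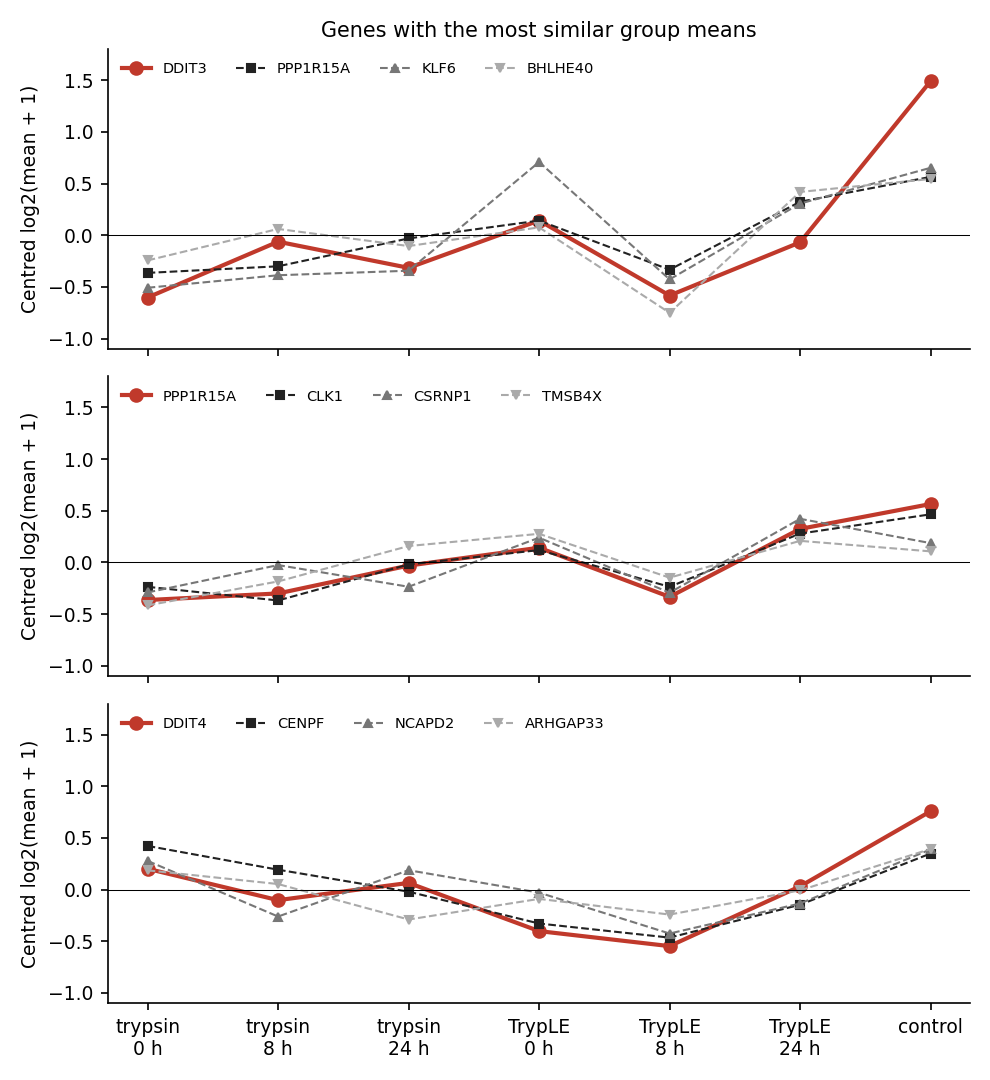
Centred log2(group mean + 1) (vertical axes) over the 6 enzyme groups and the enzyme-free control (horizontal axis) for DDIT3, PPP1R15A and DDIT4 (red) and for the 3 most similar named genes of each (black and grey), with lines only to guide the eye. CLK1 follows PPP1R15A closely, at a difference of 0.0784, whereas DDIT3 lies above its neighbours in the control.

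Few other genes of the response were in the comparison table. Of 22 symbols for its sensors and core, from the eIF2 kinases to the subunits of eIF2 and eIF2B, only PPP1R15A was listed. ATF4 and the kinases thus have no value in that comparison. The 134 union genes outside the comparison were not searched for symbols of any list, so whether ATF4 or the kinases have group means is unknown here. Of 60 symbols for targets of ATF4 and CHOP 8 were listed, 5 lower and 3 higher after trypsin, with 3 lower and 1 higher past the threshold in the authors' deposited table, against 20.3% of all listed genes called in either direction. Of the 4 called, 3 are DDIT3, PPP1R15A and DDIT4, chosen with these results known, so the count lends the list no support. These 8 genes had a median of -0.35 on the log2 scale, against -0.29 over all listed genes, of which 706 were lower and 531 higher. The other gene that passed was ATF3. The edgeR refit called 2, ATF3 and DDIT3, against 14.8% of the genes fitted.

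ATF3, a stress-induced transcription factor that ATF4 and growth signals both induce, had the largest difference among the listed targets. It had 681, 695 and 671 normalized counts after trypsin, against 1628, 1553 and 1576 after TrypLE, and the authors' deposited table puts its log2 change at -1.22 (adjusted p = 6.12e-24). On the FPKM scale it had means of 20.8, 25.7 and 43.0 at 0, 8 and 24 h after trypsin and 48.3, 11.9 and 75.9 after TrypLE, against 70.2 in the control. It thus shared the low trypsin level at 0 h with DDIT3 and PPP1R15A, but at 24 h after TrypLE its mean was above that of the control. CEBPB, a partner of CHOP in dimers, stood at 0.37 on the log2 scale by the authors' deposited table and missed the threshold (adjusted p = 0.245). Its libraries held 3264, 2847 and 2808 normalized counts after trypsin, against 1852, 2584 and 2490.5 after TrypLE. On the FPKM scale CEBPB had means of 89.9, 36.9 and 145 at 0, 8 and 24 h after trypsin. After TrypLE they were 70.0, 39.2 and 138, against 106 in the control, so the 24 h means lay above the control. GDF15, a secreted stress signal, averaged 1884 ± 200 normalized counts in trypsin libraries and 2293 ± 340.2 in TrypLE libraries (SD, n = 3 each). Its groups overlapped, and it missed the threshold (adjusted p = 0.581 in the authors' deposited table). Its control mean was the highest of the 7 groups, as for DDIT3, PPP1R15A and DDIT4, at 118 on the FPKM scale, while its means at 8 h were 18.2 after trypsin and 19.3 after TrypLE. JDP2, a repressor of the AP-1 family, and EPRS1, which charges glutamate and proline onto tRNA, stood at log2 changes of -0.41 and 0.28, neither past the threshold (adjusted p = 0.646 and 0.401 in the authors' deposited table).

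**Figure D5:**
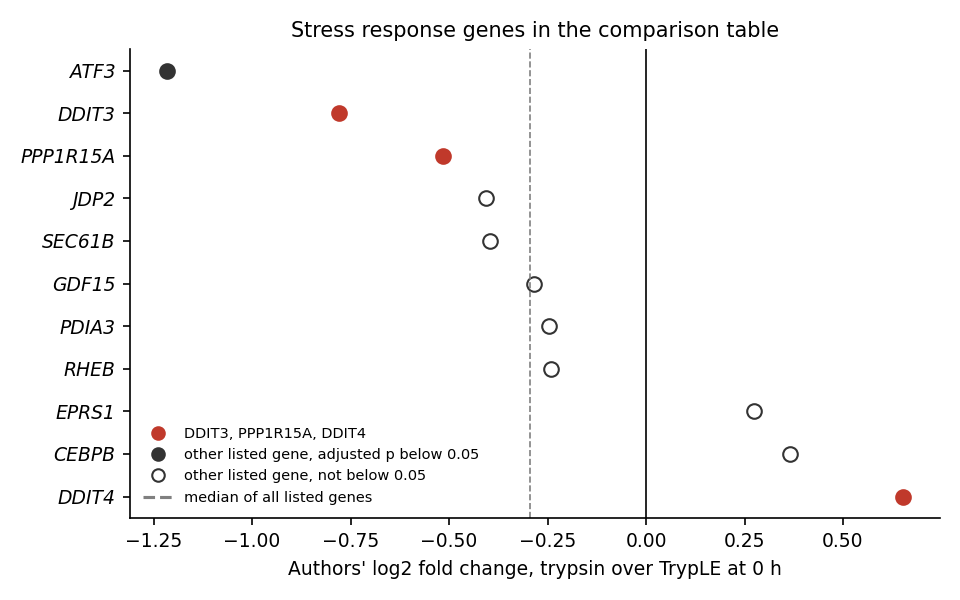
Log2 fold change of trypsin over TrypLE at 0 h in the authors' deposited table (horizontal axis) for the 11 listed genes of the core, ATF4 and CHOP target, unfolded protein and mTORC1 lists (rows), with filled points for an adjusted p below 0.05 and a dashed line at the median of all listed genes, -0.29. ATF3, DDIT3 and PPP1R15A lie on the lower side and DDIT4 at the upper end, at 0.65.

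The branches on either side of the response gave little. Of 26 symbols for the unfolded protein response of the endoplasmic reticulum 2 were listed and neither passed. SEC61B, a part of the translocon, and PDIA3, a disulfide isomerase, stood at log2 changes of -0.40 and -0.25 by the authors' deposited table (adjusted p = 0.167 and 0.352). With the length trend removed, SEC61B went to 0.24 and PDIA3 to -0.17 in edgeR. Of 27 symbols for the mTORC1 branch, in which REDD1 acts, DDIT4 and RHEB were listed. RHEB, the GTPase that turns mTORC1 on, averaged 3583 ± 465 normalized counts in trypsin libraries and 4237 ± 353 in TrypLE libraries (SD, n = 3 each). The libraries overlapped, and it missed the threshold (adjusted p = 0.663 in the authors' deposited table). Its log2 fold change of -0.24 in edgeR became 0.05 with the length trend removed. Of 24 heat shock symbols BAG3, a co-chaperone, was the only one listed, at a log2 change of 0.27 and short of the threshold (adjusted p = 0.64 in the authors' deposited table).

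DDIT4 was also set beside 26 other targets of glucocorticoids and hypoxia, of which 4 were listed. All 4 lay on the other side from DDIT4, lower after trypsin, which was the common side, with 706 of the 1237 listed genes. Of all listed genes, 17.5% were called lower in the authors' deposited table. DUSP1, a phosphatase of MAP kinases, stood at a log2 change of -1.31 and ERRFI1, an inhibitor of the EGF receptor, at -0.49, and both passed by the authors' deposited table (adjusted p = 9.31e-34 and 0.0269). ERRFI1 was not called by edgeR (adjusted p = 0.164) or DESeq2 (adjusted p = 0.0881). SGK1, a kinase induced by glucocorticoids, was at -0.45 and did not pass (adjusted p = 0.627 in the authors' deposited table). Of 19 symbols for the oxidative stress response 3 were listed. MAFF, a small Maf protein, fell to 733 ± 13.5 normalized counts after trypsin, against 1207 ± 98.8 after TrypLE (SD, n = 3 each). The authors' deposited table puts its log2 change at -0.72 (adjusted p = 6.85e-07). TXN, a thioredoxin, was at -0.49 and ABCC2, an efflux pump, at 0.33, and neither passed (adjusted p = 0.0837 and 0.517 in the authors' deposited table). TXN went to 0.14 in edgeR with the length trend removed, and ABCC2 to -0.0046.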

How the data were processed

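The submitters' processing notes name HISAT2 2.0.5 and featureCounts 1.5.0-p3 for the Vero RNA libraries; the sources used here do not name a genome build, an annotation or a differential test. The deposited comparison table holds, for 1237 genes, a signal per library that the authors made by dividing read counts by size factors of 0.9443 to 1.0911, their log2 fold changes, and p-values with adjusted p, whose adjustment fits 15194 genes. Within 0.01 reads, 100% of values gave whole reads in each library. For TrypLE replicate 1 this rests on the even steps of its own values and did not pass a separate check of recovered reads; the refits and counting errors use its reads too. The 101 listed genes with an adjusted p of 1 were low in counts. The deposited union table gives the authors' group means for 340 genes with no unit named; normalized counts per kilobase were 15.74 times its values with a coefficient of variation of 0.108%, so these deposited values are called FPKM here. The pathway table gives the authors' p-values.

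The planned edgeR test on all genes could not be run on a selected table, so the authors' test is the main result, at an adjusted p of 0.05. Refits of the listed genes used edgeR 4.0.16 (quasi-likelihood; 170 genes called), DESeq2 1.42.0 (195 called) and limma 3.58.1 in R 4.3.3, adjusted by Benjamini-Hochberg over 15194 genes, and were tested on simulated data; limma used log2(normalized count + 1). Python 3.11.15 with pandas 2.3.3 and scipy 1.17.1 did the rest. The members and lists were chosen with earlier results of these data known. Named are the 3 members, listed genes of 4 stress lists, up to 4 genes of each other list by adjusted p, and 3 genes most like each member. Nothing in the labels says that replicates were separate cultures beyond calling them biological, so p-values measure the spread between these samples. The labels give no batch.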

Additional observations from a re-analysis of the deposited data

How the results depend on the processing

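Directions held for DDIT3, PPP1R15A and DDIT4 in each of 17 refits, but calls did not. Each refit draws on the same libraries, whose groups did not overlap for these genes, so the shared direction is no independent support. All 3 were called by the authors' test and by DESeq2. In the other refits of all 6 libraries 1 was called. It was DDIT3 in edgeR with the authors' size factors, no expression filter, a mean of at least 100 or the replicate block, and in limma with a pseudocount of 1 or 10. It was DDIT4 in edgeR with TMM factors (0.81), median-ratio factors (0.84) or the length trend removed, without (0.88) and with (0.90) the replicate block. With 1 library left out, 1 to 2 were called. DDIT3 lost its edgeR call at -0.62 under TMM, -0.58 under median-ratio factors, -0.38 with the length trend removed and -0.37 with the replicate block added to that. Leaving out 1 library gave -0.88 to -0.70 (-0.74 to -0.70 where the call was lost), with calls lost without trypsin replicate 2 (adjusted p = 0.062 by edgeR) and TrypLE replicate 2 (adjusted p = 0.0831 by edgeR). PPP1R15A missed the threshold at -0.52 in edgeR with the authors' size factors, with no filter and at a mean of at least 100, at -0.35 under TMM, -0.32 under median-ratio factors, -0.51 with the replicate block, -0.37 and -0.36 with the length trend removed without and with that block, and -0.51 in limma with either pseudocount. Leaving out 1 library gave -0.56 to -0.43 (-0.48 without trypsin replicate 2), and it was called without trypsin replicate 1 alone. DDIT4 missed it at 0.65 in edgeR with the authors' size factors, with no filter and at a mean of at least 100, at 0.66 with the replicate block, and at 0.66 and 0.65 in limma with a pseudocount of 1 and 10. Leaving out 1 library gave 0.54 to 0.82, with calls without trypsin replicate 2 or TrypLE replicate 2 but not without replicate 3 of either (0.70 for trypsin, 0.62 for TrypLE). The cause of these changes was not tested. TMM and median-ratio factors over the listed genes move the median log2 fold change from -0.29 to -0.13 and -0.09. Removal of the length trend lowered the prior degrees of freedom of edgeR, 6.48 against 20.4, and left 65 genes called, against 170.

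In edgeR 0 core genes, 2 ATF4 and CHOP targets, 0 genes of the mTORC1 branch and 1 glucocorticoid and hypoxia target were called, against 1, 4, 1 and 3 in the authors' deposited table. Deviations of same-numbered libraries had correlations of -0.0046, 0.0717 and -0.0467 over 1024 genes of this selected table. For listed genes shorter than 1000 bases, replicate 1 had the highest median deviation of its group after both enzymes, at -0.11 and 0.45. Whether the numbers pair the samples is therefore unknown. The replicate block moved the edgeR count to 167. With a pseudocount of 1, all 27 ratios of group means moved by less than the spread at 0 h. With each group scaled by its median over the union genes, 20 moved by less than that spread and 7 by more. Scaling each group by its median over the union genes moved the log2 ratio of trypsin at 0 h over control to -1.77 for DDIT3, -0.55 for PPP1R15A and -0.19 for DDIT4, and that of TrypLE at 24 h over control to -0.083 for PPP1R15A. Trypsin over TrypLE at 0 h went to -0.36 for DDIT3, -0.093 for PPP1R15A and 1.08 for DDIT4. The depth over all genes and the spread of 5 of the 7 groups are unknown.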

Other observations

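The authors' deposited pathway table places DDIT3 in 7 pathways, DDIT4 in 4 and PPP1R15A in 0. Protein processing in the endoplasmic reticulum, the pathway in which CHOP acts, held 9 of 560 annotated genes from the comparison and 218 of 8172 in the background. All 9 were lower after trypsin, in a table where 706 of 1237 genes were lower, and the pathway missed the threshold (p = 0.968 in the authors' deposited table). Apoptosis held 10 listed genes, of which 9 were lower (p = 0.566 in the authors' deposited table). The 3 pathways with DDIT3 that passed there were those named for non-alcoholic fatty liver disease, Parkinson disease and Alzheimer disease, with adjusted p of 5.06e-10, 1.47e-09 and 3.8e-05. They held 42, 59 and 59 listed genes, of which 41, 55 and 52 were lower after trypsin. DDIT3 is 1 gene among these, so the pathway p-values are no result about DDIT3. The mTOR signaling pathway, in which DDIT4 acts, held 13 listed genes, 8 higher and 5 lower after trypsin, and did not pass either (p = 0.39 in the authors' deposited table).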
